A study of Rattus norvegicus with 6 samples.

Results

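Cadherins and protocadherins are calcium-dependent adhesion proteins that carry repeated extracellular cadherin domains. Their genes were examined in oligodendrocyte precursor cells (OPCs), the dividing glia that give rise to oligodendrocytes, after treatment with ZJU-37 or with its solvent DMSO. Members were the genes of the deposited table whose names begin with Cdh and a digit, Pcdh, Celsr, Fat and a digit, or Dchs, which gave 79 genes of 32883. Of these, 69 passed the filter on low counts and were among the 14670 genes tested. The other 10 were not tested. Of them, Pcdhb1, Cdh16 and Cdh26 had 0 counts in every library, and Cdh3, Cdh7, Cdh9, Cdh12, Cdh17, Cdh18 and Pcdh12 had at most 13 counts in a library.

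The OPCs came from the cortices of Sprague Dawley rats at postnatal day 0, with 2 rats per culture, and 3 poly-A RNA libraries were sequenced per group. According to the labels, one group received 5 µM ZJU-37 and the other an equal volume of DMSO, both for 36 h, whereas the study's Methods state a shorter treatment. ZJU-37 inhibits the kinase RIPK1 and differs from the known inhibitor necrostatin-1s by an added amide group. The comparison shows which adhesion genes differed between ZJU-37-treated and solvent-treated cells. The study calls the libraries biological repeats in one place and plate wells in another, so p-values may measure only technical spread between samples.

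The libraries held 13935865 to 24097927 counts. Levels are given as CPM, the count scaled to a common library size with TMM factors, and a count of 3 then equals 0.124 to 0.219 CPM depending on the library, which reflects counting error alone. RPKM values are these CPM values divided by the gene length in kilobases. Of the 9 OPC markers, 8 were found by name and all 8 were tested. Of these, 4 rose (Pdgfra, Cspg4, Olig1 and Ptprz1), 3 fell (Sox10, Gpr17 and Nkx2-2) and Olig2 did not pass, with the same counts in the fit with the replicate block described below. The shares over all tested genes were 9.43% higher and 5.58% lower, and 16.2% and 15.9% with the block. Mean Pdgfra went from 394 CPM with DMSO to 843 CPM with ZJU-37 and mean Gpr17 from 357 to 33.1 CPM. The 10 oligodendrocyte markers summed to 11419 to 22755 CPM in the DMSO libraries and to 4820 to 10075 CPM in the ZJU-37 libraries. Summed microglia markers ranged from 2395 to 4128 CPM with DMSO and from 1731 to 3620 CPM with ZJU-37, and summed astrocyte markers from 1007 to 1627 and from 884 to 1331 CPM. Neuron markers (563 to 904 and 517 to 823 CPM), fibroblast or pericyte markers (77.4 to 149 and 42.7 to 111 CPM) and Schwann markers (26.8 to 36.5 and 28.3 to 40.4 CPM) also overlapped between groups, and ependymal markers summed to at most 1.11 CPM. With the block, the markers called lower were 5 of 10 for oligodendrocytes, 4 of 8 tested for astrocytes, 4 of 11 for microglia and 4 of 12 for neurons. They were 2 of 7 for fibroblasts or pericytes, 2 of 4 for Schwann cells and 1 of 3 for endothelial cells, against 15.9% of all tested genes. In both fits 1 astrocyte and 1 Schwann marker were called higher. Without the block, 2 oligodendrocyte, 1 astrocyte, 1 Schwann and 1 endothelial marker were called lower, and no microglia, neuron, fibroblast or pericyte marker was. In these bulk samples, fewer cells of a type and less RNA per cell cannot be told apart.

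Classical cadherins bind like cadherins on neighbouring cells and are tied to the actin cytoskeleton by catenins. Clustered protocadherins are made from large gene clusters in which variable exons, each with its own promoter, encode the extracellular part, and they give single neural cells different surface identities. Fat, Dachsous and flamingo (Celsr) proteins are very large cadherins known for planar cell polarity and growth control, and non-clustered protocadherins act in cell sorting and cell movement.

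Upstream sequences of 4 of the 6 genes that passed the test are shown as examples, 2 rich in GC and CpG and 2 less so. Those of Pcdh1 and Pcdhb14 are given by their counts only. They are the 250 bases before the annotated start in RefSeq (rat build GRCr8), written 5′ to 3′ on the strand of the gene. Capitals mark matches on either strand to CAGGTG, an E-box read by Zeb and Snail repressors, or to GGGCGG, the GC box. The regions are chr2:70355439-70355688 (plus strand) for Cdh10, chr15:32071284-32071533 (minus strand) for Cdh24, chr2:198741383-198741632 (minus strand) for Celsr2 and chr14:57113523-57113772 (minus strand) for Pcdh7.
Cdh10: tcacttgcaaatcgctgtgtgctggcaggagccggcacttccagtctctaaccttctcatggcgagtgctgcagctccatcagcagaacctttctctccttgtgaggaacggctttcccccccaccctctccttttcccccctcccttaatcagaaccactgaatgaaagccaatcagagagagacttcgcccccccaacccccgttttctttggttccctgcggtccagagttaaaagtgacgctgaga
Cdh24: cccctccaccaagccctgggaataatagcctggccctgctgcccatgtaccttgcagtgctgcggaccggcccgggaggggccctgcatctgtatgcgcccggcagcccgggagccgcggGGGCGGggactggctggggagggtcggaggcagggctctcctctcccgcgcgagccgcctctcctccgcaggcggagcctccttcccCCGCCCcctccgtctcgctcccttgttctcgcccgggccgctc
Celsr2: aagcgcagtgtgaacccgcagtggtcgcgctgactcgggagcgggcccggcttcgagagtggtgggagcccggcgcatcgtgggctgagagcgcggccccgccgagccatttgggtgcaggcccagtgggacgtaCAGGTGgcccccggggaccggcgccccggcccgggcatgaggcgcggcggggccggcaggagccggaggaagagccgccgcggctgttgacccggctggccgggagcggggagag
Pcdh7: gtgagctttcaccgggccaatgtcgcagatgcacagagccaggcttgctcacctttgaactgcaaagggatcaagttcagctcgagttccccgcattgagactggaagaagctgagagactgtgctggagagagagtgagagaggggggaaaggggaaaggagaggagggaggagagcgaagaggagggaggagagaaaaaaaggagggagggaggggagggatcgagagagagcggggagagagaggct
Celsr2 held 1 E-box match and Cdh24 held 2 GC box matches, and no match overlapped another. The Celsr2 and Cdh24 sequences had a GC content of 76.4% and 74.0%, with 32 and 22 CpG dinucleotides, against 57.2% and 7 for Pcdh7 and 54.8% and 8 for Cdh10. Neither Cdh10 nor Pcdh7 held any of the motifs searched. The Pcdh1 sequence held 2 GC box matches at a GC content of 76.8%, and that of Pcdhb14 held none of the motifs at 40.4%. Of 57 different member genes with a RefSeq promoter sequence, 5 held CAGGTG (8.77%), as did 15.6% of all 27457 promoters. GGGCGG was found in 11 of the 57 (19.3%) and in 32.4% of all promoters, and TATAAA, the TATA box, in 7 (12.3%) and 13.1%. The median GC content was 40.6% over the 28 clustered protocadherin sequences and 57.2% over the 29 other members, against 52.0% over all promoters. These matches are a description of letters and say nothing of binding.

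N-cadherin (Cdh2) and the gamma protocadherin Pcdhgc3 had the highest values per length, although the Pcdhgc3 gene model may also collect reads of other gamma genes, so its level and rank are uncertain. Cdh2, the classical cadherin that dominates neural adhesion, had 87.2 ± 6.63 RPKM with DMSO and 105 ± 6.24 RPKM with ZJU-37 (SD, n = 3 in each group here and throughout), and Pcdhgc3 had 89.4 ± 4.99 and 102 ± 12.7 RPKM. Their levels could not be told apart, since they lay within 1 SD of each other in both groups. The next levels, as means over the 6 libraries, were 26.9 RPKM for Fat1, 25.5 for Cdh13, 20.8 for Pcdh17, 20.7 for Pcdh10 and 19.7 for Pcdh7. They were followed by 15.9 RPKM for Cdh4, 14.8 for Celsr2 and 13.2 for Cdh11. Fat1 and Cdh13 are neighbours whose DMSO levels (24.2 ± 2.35 and 27.7 ± 3.02 RPKM) differ by less than the sum of their SDs, and the same holds for Pcdh17 and Pcdh10 (25.2 ± 7.23 and 17.8 ± 4.26 RPKM). In all, 15 members had a mean of at least 10 RPKM, 44 lay from 1 to under 10 and 20 lay under 1. E-cadherin (Cdh1), the epithelial cadherin, was among the last, at 0.339 ± 0.00986 RPKM with DMSO and 0.382 ± 0.0568 with ZJU-37. Fat2 had the lowest level of the tested members, a mean of 0.0887 RPKM.

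**Figure D1:**
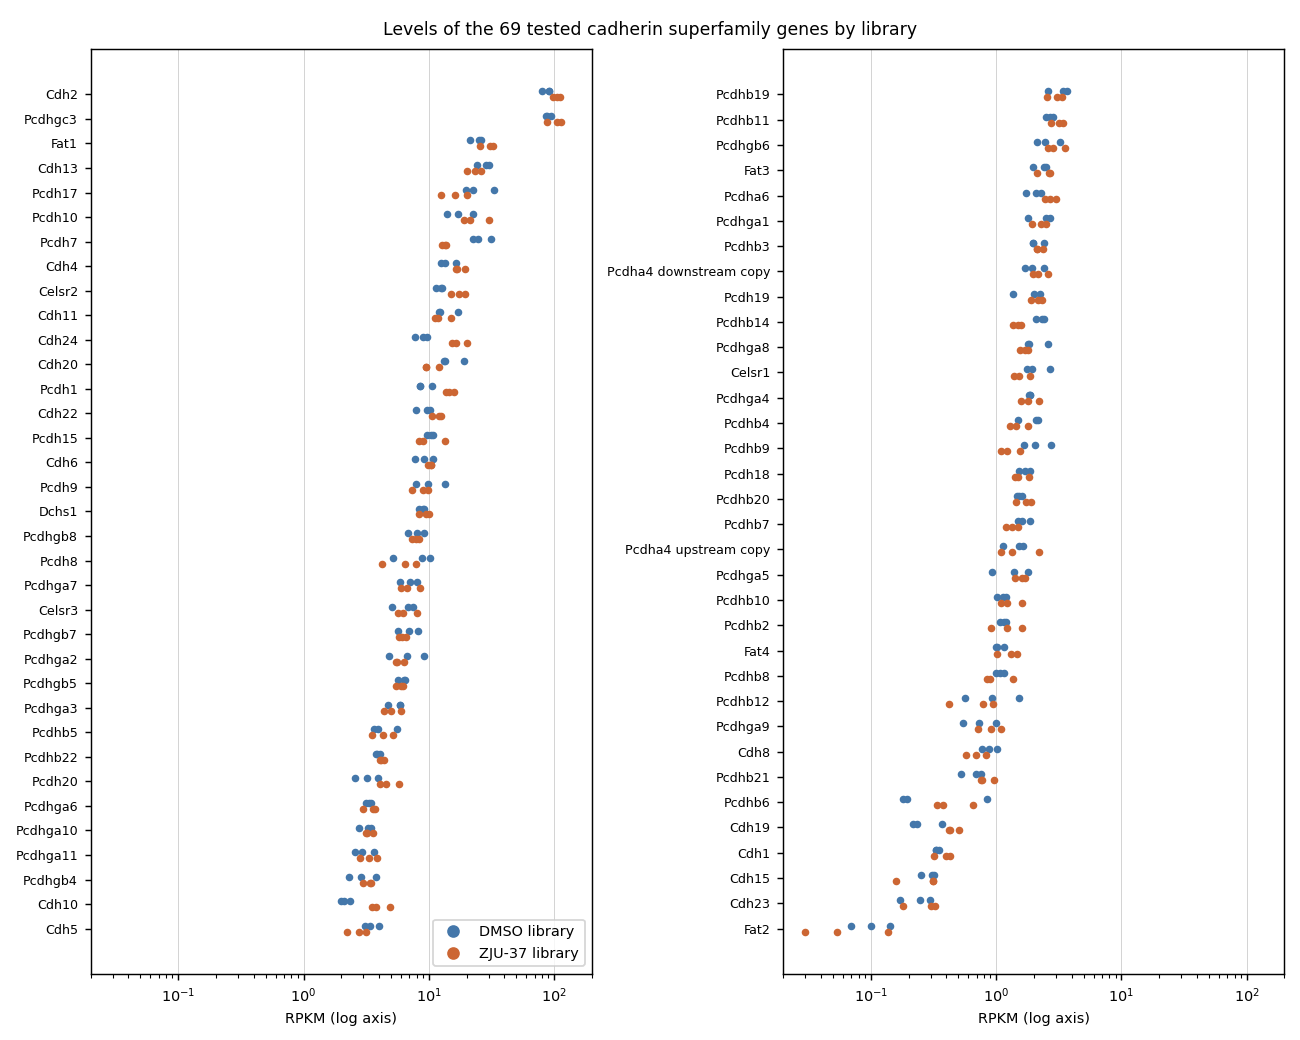
RPKM (log axis) of the 69 tested members in each library, ordered by their mean, with DMSO libraries in blue and ZJU-37 libraries in orange. Cdh2 (mean 96.3 RPKM) and Pcdhgc3 (95.5 RPKM) stand above Fat1 (26.9 RPKM), with Pcdhgc3 uncertain because of shared exons, and most other members lie between 1 and 10 RPKM.

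With ZJU-37, 4 members rose and 2 fell. Those that rose were the type II classical cadherins Cdh24 and Cdh10, the protocadherin Pcdh1 and the flamingo gene Celsr2, and those that fell were the protocadherins Pcdh7 and Pcdhb14. At an adjusted p under 0.05 in the quasi-likelihood test of edgeR, with Benjamini-Hochberg correction over all tested genes, the 4 were 5.80% of the tested members against 9.43% of all tested genes, and the 2 were 2.90% against 5.58%. In either direction 8.70% of the members passed, against 15.0% of all tested genes. Unadjusted, 16 of the 69 tested members had p under 0.05 in this test, and the share of all tested genes at that limit was not computed. No called member passed an added limit of 1 on the size of the log2 fold change (0 higher and 0 lower), which 2.79% of all tested genes passed upwards and 1.45% downwards. The members' median log2 fold change was 0.06, against -0.03 over all tested genes.

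Libraries of the same replicate number deviated together across groups, and with that number as a block the calls increased. Then 12 members were higher (17.4%, against 16.2% of all tested genes) and 9 were lower (13.0%, against 15.9%). In either direction these 21 made up 30.4% of the tested members, close to the 32.1% of all tested genes. The 3 ZJU-37 libraries lay above all 3 DMSO libraries for 10 members (14.5%, against 19.0% of all tested genes) and below them for 4 (5.80%, against 16.2%), and over both directions 35.2% of all tested genes did not overlap. In all 3 replicate pairs, 20 members were higher with ZJU-37 (29.0%, against 28.1%) and 20 were lower (29.0%, against 33.7%).

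Among the type I classical cadherins, none of the 4 tested passed the test without the block. Values by library are given in the order of replicates 1, 2 and 3. Cdh2 measured 392, 345 and 397 CPM with DMSO and 461, 429 and 483 CPM with ZJU-37. Every ZJU-37 library lay above every DMSO library, by a log2 fold change of 0.27 ± 0.08 (SE) with an edgeR adjusted p of 0.0750, and of 0.0022 with the block. DESeq2 gave an adjusted p of 0.0372. R-cadherin (Cdh4), a close relative that acts in axon growth, measured 35.9, 33.2 and 44.0 CPM with DMSO and 43.6, 44.2 and 51.7 CPM with ZJU-37. Its groups overlapped, with a log2 fold change of 0.30 ± 0.12 (edgeR adjusted p = 0.167, and 0.00569 with the block). Cdh2 supplied between 57.5% and 61.6% of the counts of the classical cadherins in the DMSO libraries and between 60.4% and 63.9% in the ZJU-37 libraries. The E-cadherin gene Cdh1, at 1.46, 1.47 and 1.54 CPM with DMSO and 1.89, 1.75 and 1.41 CPM with ZJU-37, overlapped between groups. Its log2 fold change of 0.17 had a 95% interval from -0.36 to 0.70 (edgeR adjusted p = 0.689).

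Type II classical cadherins, which mark neural populations and share the catenin-binding tail, gave the largest increases. Cdh24, a type II cadherin that binds catenins, measured 22.5, 18.4 and 21.1 CPM with DMSO and 47.7, 36.2 and 38.5 CPM with ZJU-37. The groups were far apart, with a log2 fold change of 0.98 ± 0.13 (edgeR adjusted p = 0.00354). Cdh10, a type II cadherin of the brain, measured 9.79, 8.87 and 8.39 CPM with DMSO and 20.6, 14.8 and 16.0 CPM with ZJU-37. It too did not overlap between groups, and its log2 fold change was 0.93 ± 0.15 (edgeR adjusted p = 0.0091). Both calls held in each of the 6 fits that left out a library, with adjusted p-values of at most 0.0191 for Cdh24 and 0.0417 for Cdh10.

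The other type II cadherins went both ways. Cdh20 measured 59.3, 41.2 and 40.5 CPM with DMSO and 37.4, 29.2 and 29.1 CPM with ZJU-37, so that the groups did not overlap. Its log2 fold change of -0.56 ± 0.18 had an edgeR adjusted p of 0.0921, and of 0.000225 with the block, and without DMSO replicate 1 it was -0.36. Cdh22 measured 25.1, 19.2 and 23.7 CPM with DMSO and 29.7, 26.1 and 30.5 CPM with ZJU-37, with a log2 fold change of 0.34 ± 0.12 (edgeR adjusted p = 0.118, and 0.00824 with the block). Its span overlaps those of LOC102555457 and Slc35c2 on the same strand, so its counts are uncertain. VE-cadherin (Cdh5), the adhesion protein of endothelial junctions, measured 12.6, 13.7 and 16.2 CPM with DMSO and 8.98, 11.1 and 12.6 CPM with ZJU-37, a log2 fold change of -0.38 ± 0.16 (edgeR adjusted p = 0.189, and 0.0192 with the block). Without ZJU-37 replicate 1 that fold change was -0.24. Beside it, 6 of the 7 endothelial markers were found and summed to 6.84 to 8.18 CPM with DMSO and 4.27 to 5.58 CPM with ZJU-37, with Cldn5 and Emcn at 0 in every library. Of the 3 endothelial markers tested, only Vwf was called without the block, falling from a mean of 4.42 to 2.21 CPM (edgeR adjusted p = 0.0204). The median log2 fold change of the 3 was -0.04, and the part of these cells in the Cdh5 values was not tested. Cdh11, also known from mesenchyme, measured 88.7, 63.0 and 62.6 CPM with DMSO and 77.5, 58.0 and 61.1 CPM with ZJU-37. Its log2 fold change of -0.12 ± 0.17 did not pass in either fit (edgeR adjusted p = 0.700, and 0.158 with the block). Cdh19 had the largest fold change of the members called in neither fit, 0.71 ± 0.28 on the log2 scale, at means of only 1.21 CPM with DMSO and 1.99 CPM with ZJU-37.

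T-cadherin (Cdh13), which is held in the membrane by a lipid anchor and lacks the catenin-binding tail, measured 123, 98.5 and 114 CPM with DMSO and 94.0, 81.9 and 106 CPM with ZJU-37. The groups overlapped, although it was lower in each replicate pair, with a log2 fold change of -0.25 ± 0.12 (edgeR adjusted p = 0.222, and 0.0121 with the block), which became -0.13 without ZJU-37 replicate 2. Cdh23, a tip-link protein of hair cells, stayed at 2.03 ± 0.546 CPM with DMSO and 2.29 ± 0.662 CPM with ZJU-37. Its span overlaps that of Vsir on the opposite strand, and the sources used here do not say whether counting used the strand.

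**Figure D2:**
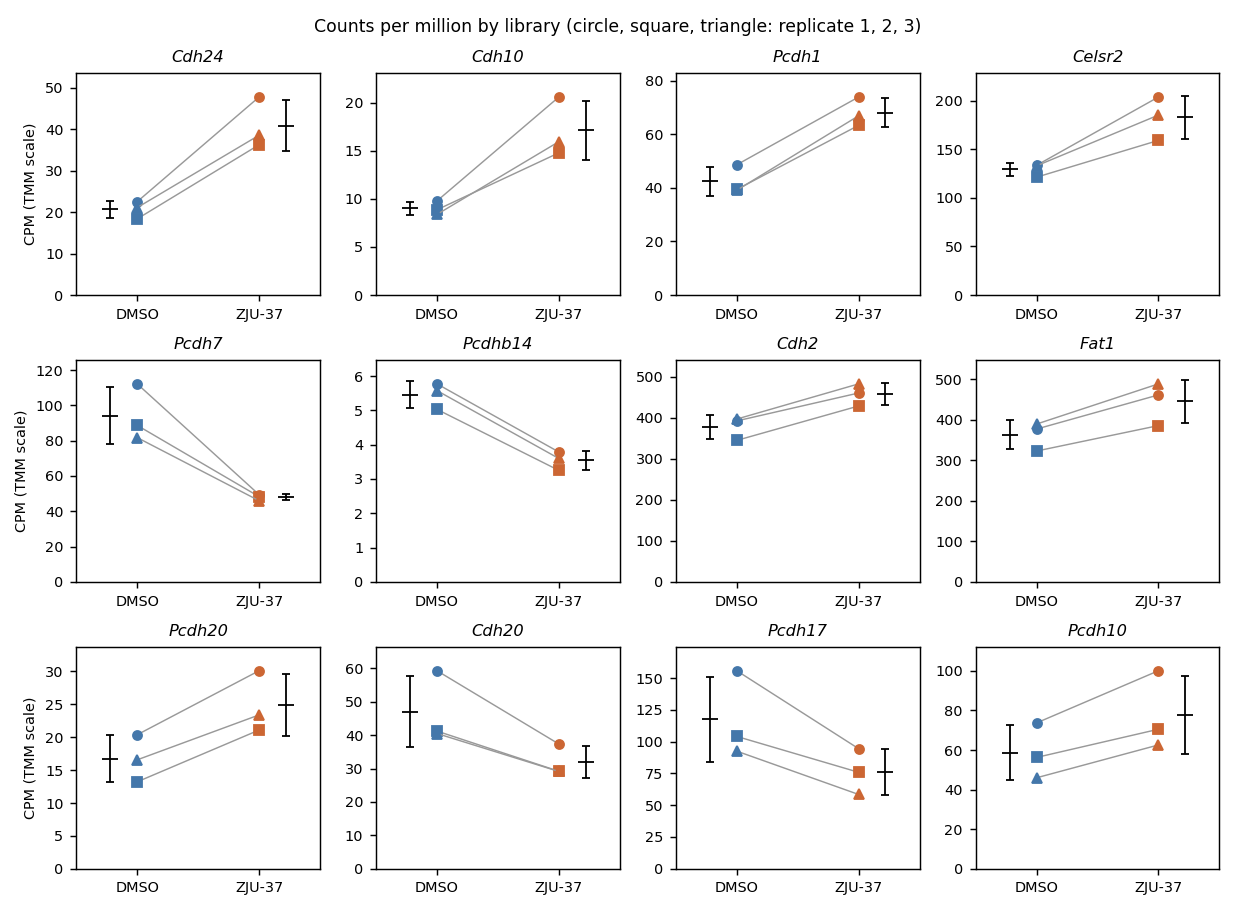
CPM of 12 members by library, with lines joining libraries of the same replicate number and black bars showing the mean ± SD of each group. The groups are apart in Cdh24, Cdh10, Pcdh1, Celsr2, Pcdh7 and Pcdhb14, and also in Cdh2, Pcdh20 and Cdh20, whereas in Fat1, Pcdh17 and Pcdh10 they overlap but all 3 lines run the same way.

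Non-clustered protocadherins of the delta-1 kind, which carry a long extracellular part and a tail that binds a phosphatase, moved in opposite directions. Pcdh7 measured 112, 88.7 and 81.8 CPM with DMSO and 49.4, 48.3 and 46.0 CPM with ZJU-37. The ZJU-37 libraries lay close together and far below the DMSO libraries, with a log2 fold change of -0.97 ± 0.12 (edgeR adjusted p = 0.00264). Pcdh1, known from epithelial and vascular adhesion, measured 48.7, 39.4 and 39.1 CPM with DMSO and 74.0, 63.4 and 67.0 CPM with ZJU-37. It rose without overlap, by a log2 fold change of 0.69 ± 0.11 (edgeR adjusted p = 0.0071). Both calls held whichever library was left out. Pcdh9, the third delta-1 gene, measured 36.3 ± 9.58 CPM with DMSO and 30.5 ± 4.55 CPM with ZJU-37 and passed in neither fit (log2 fold change -0.25 ± 0.21, edgeR adjusted p = 0.501, and 0.0528 with the block).

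Delta-2 protocadherins, some of which recruit the WAVE complex that drives actin branching, gave no call without the block and 3 of 5 with it, where 32.1% of all tested genes were called. Pcdh17 measured 156, 104 and 92.5 CPM with DMSO and 94.5, 75.9 and 58.4 CPM with ZJU-37. The range within DMSO was wider than the step between the group means, yet each pair was lower with ZJU-37, and the log2 fold change of -0.62 ± 0.25 had an edgeR adjusted p of 0.154, and of 7.09e-05 with the block. It was -0.37 without DMSO replicate 1. Pcdh10 showed the mirror image, at 73.7, 56.3 and 46.0 CPM with DMSO and 100.1, 70.5 and 62.6 CPM with ZJU-37. It was higher in each pair, with a log2 fold change of 0.41 ± 0.23 (edgeR adjusted p = 0.314, and 0.00059 with the block), which was 0.21 without ZJU-37 replicate 1 and 0.26 without DMSO replicate 3. Pcdh8, an activity-regulated protocadherin of neurons, measured 33.1, 16.6 and 28.3 CPM with DMSO and 25.2, 13.5 and 20.7 CPM with ZJU-37, a log2 fold change of -0.39 ± 0.31 (edgeR adjusted p = 0.488, and 0.00669 with the block). For Pcdh8 it was -0.18 without DMSO replicate 1, -0.63 without DMSO replicate 2 and -0.14 without ZJU-37 replicate 2. For all 3 genes the call rests on the pairing, since the groups overlap. Beside the lower values of Pcdh8, Pcdh17 and Cdh13 stand the marker lists of neurons, astrocytes and microglia, some of whose members were also lower with the block, and their part in these results was not tested. Pcdh18 and Pcdh19 passed in neither fit.

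Outside the delta groups, Pcdh20 measured 20.4, 13.2 and 16.6 CPM with DMSO and 30.1, 21.1 and 23.4 CPM with ZJU-37. Its groups did not overlap, with a log2 fold change of 0.57 ± 0.20 (edgeR adjusted p = 0.105, and 0.000856 with the block) and an adjusted p of 0.0488 in DESeq2. Pcdh15, the partner of Cdh23 in tip links, had nearly equal means, 48.1 ± 2.68 CPM with DMSO and 48.0 ± 13.2 CPM with ZJU-37. The 95% interval of its log2 fold change ran from -0.45 to 0.44.

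The 3 flamingo genes, which encode cadherins with a G protein-coupled receptor tail that set planar polarity, gave 3 different results. Celsr2 measured 134, 121 and 133 CPM with DMSO and 204, 159 and 185 CPM with ZJU-37. It rose without overlap, by a log2 fold change of 0.50 ± 0.10 (edgeR adjusted p = 0.0179). This call was lost without DMSO replicate 2 (adjusted p = 0.0750), without DMSO replicate 3 (0.0550) and without ZJU-37 replicate 3 (0.0621). Celsr1 measured 15.9, 17.3 and 23.8 CPM with DMSO and 13.5, 12.5 and 16.5 CPM with ZJU-37, which overlapped. Its log2 fold change was -0.42 ± 0.19 (edgeR adjusted p = 0.193, and 0.0125 with the block), and it was -0.23 without DMSO replicate 3. Celsr3 measured 76.6 ± 14.6 CPM with DMSO and 79.1 ± 15.0 CPM with ZJU-37, with a log2 fold change of 0.05 ± 0.18 (edgeR adjusted p = 0.899). Whether the responses of the flamingo genes differ from each other was not tested.

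None of the 5 Fat and Dachsous genes passed without the block. Fat1, a giant cadherin that shapes cell contacts and growth, measured 377, 323 and 389 CPM with DMSO and 461, 385 and 488 CPM with ZJU-37. The lowest ZJU-37 library lay below the highest DMSO library, but each pair was higher with ZJU-37, by a log2 fold change of 0.29 ± 0.11 (edgeR adjusted p = 0.146, and 0.00155 with the block). Fat4 and its ligand Dchs1 had log2 fold changes of 0.27 ± 0.15 and 0.07 ± 0.09 (edgeR adjusted p = 0.313 and 0.670, and 0.131 and 0.387 with the block). When a library was left out, these ranged from 0.17 to 0.43 and from 0.02 to 0.17. Dchs1 measured 96.1, 88.5 and 98.5 CPM with DMSO and 100.4, 88.6 and 108 CPM with ZJU-37, and the 95% interval of its log2 fold change ran from -0.14 to 0.28. Fat3, at 31.5 ± 3.80 and 34.0 ± 4.21 CPM, and Fat2, at 1.36 ± 0.479 and 0.956 ± 0.728 CPM, were called in neither fit.

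**Figure D3:**
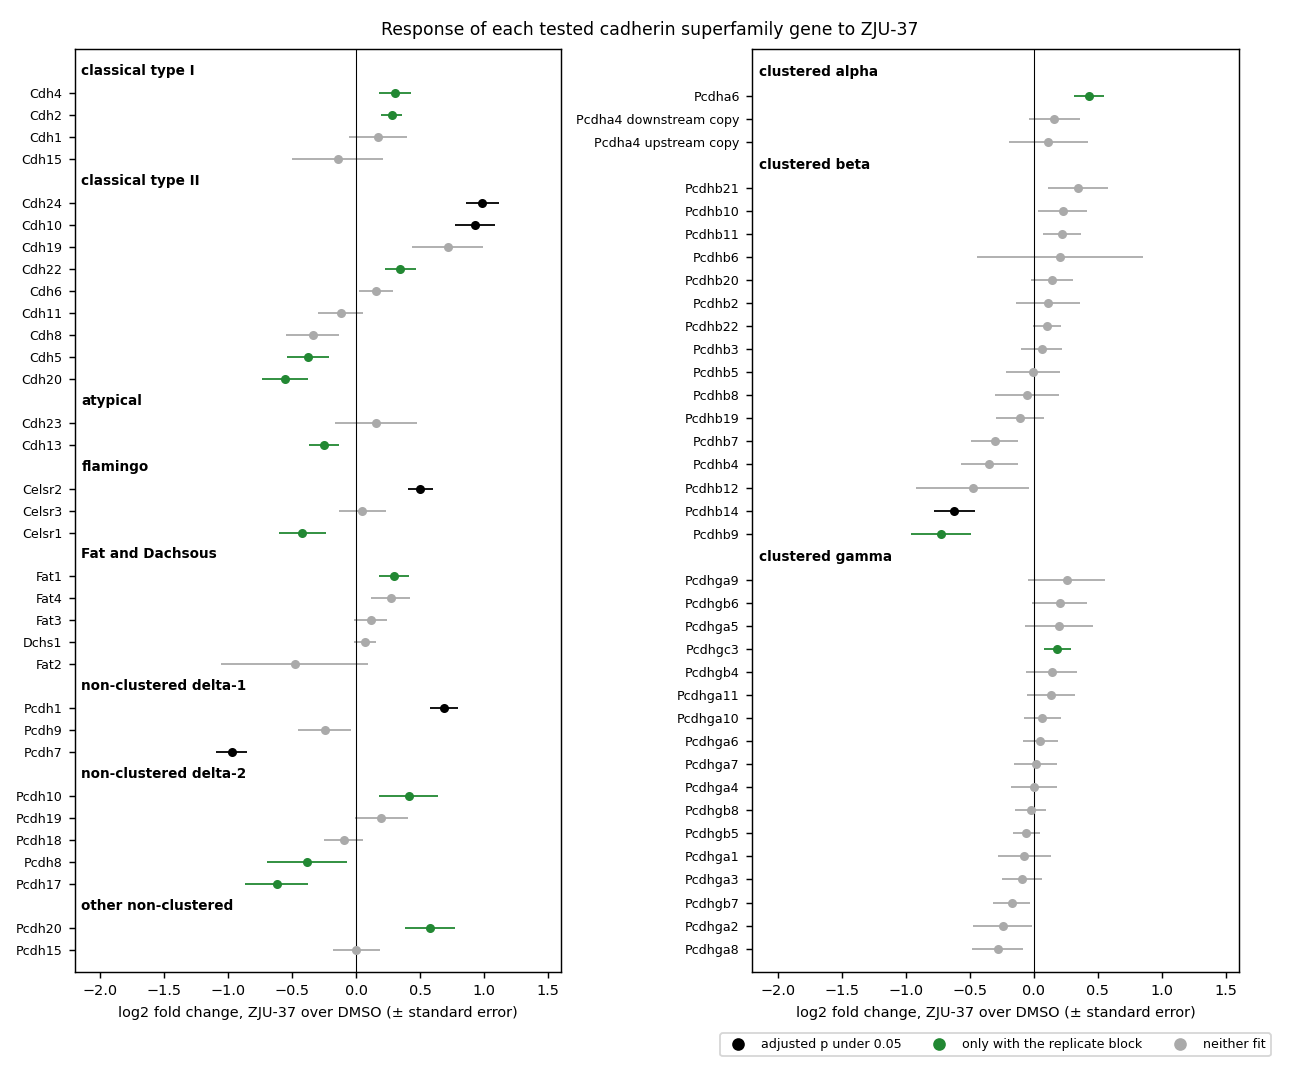
Log2 fold change of ZJU-37 over DMSO with its standard error for each tested member, by subfamily. Black points passed in the test without the block (6 members), green points passed only with the block (15), and grey points in neither (48), and the gamma genes lie between -0.28 and 0.25.

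The clustered protocadherins sit in 3 neighbouring clusters on chromosome 18. In the table, the annotated length equals the span from start to end for 2 of 3 alpha, 15 of 17 beta and 14 of 17 gamma genes, that is, for those the model holds a single block. As background, alpha and gamma transcripts all end in constant exons shared within their cluster, whereas beta genes have none. The models of Pcdhgc3 and Pcdha6 run over the end of their clusters, so reads from constant exons of other variants may be counted for them, and their levels are uncertain. Pcdhgc3 took between 74.3% and 76.5% of the gamma counts in the DMSO libraries and between 77.0% and 79.2% in the ZJU-37 libraries, and Pcdha6 took 86.4% to 87.4% and 86.6% to 90.7% of the alpha counts. The table lists Pcdha4 as 2 separate genes, named here the upstream and the downstream copy, and labels Pcdhb6 a pseudogene.

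Of the 17 gamma genes none passed without the block, and their log2 fold changes lay between -0.28 and 0.25 with a median of 0.01. Pcdhgc3 measured 503, 452 and 464 CPM with DMSO and 595, 463 and 553 CPM with ZJU-37. Its groups overlapped, with a log2 fold change of 0.18 ± 0.10 (edgeR adjusted p = 0.317, and 0.0429 with the block), which was 0.31 without ZJU-37 replicate 2. The other 16 gamma genes together gave 155 ± 18.0 CPM with DMSO and 151 ± 11.2 CPM with ZJU-37, a difference smaller than the spread between libraries.

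Of the 3 alpha genes, Pcdha6 measured 61.4, 47.1 and 56.5 CPM with DMSO and 81.3, 66.8 and 73.6 CPM with ZJU-37. The groups did not overlap, and the log2 fold change of 0.43 ± 0.12 had an edgeR adjusted p of 0.0559, and of 0.000423 with the block. The 2 Pcdha4 copies, whose models are single blocks, together gave 8.22 ± 1.43 CPM with DMSO and 9.02 ± 2.14 CPM with ZJU-37.

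Among the beta genes, 16 of 17 were tested and their log2 fold changes split evenly, 8 above and 8 below 0, with a median of 0.03. Pcdhb14 measured 5.77, 5.03 and 5.57 CPM with DMSO and 3.78, 3.25 and 3.60 CPM with ZJU-37, without overlap. It fell by 0.62 ± 0.16 on the log2 scale (edgeR adjusted p = 0.0433, and 0.0191 with the block). This call was lost whichever library was left out, with adjusted p-values between 0.0729 and 0.140, and the gene's counts lay between 67 and 105 per library. Pcdhb9 measured 8.62, 6.44 and 5.31 CPM with DMSO and 4.92, 3.49 and 3.89 CPM with ZJU-37, with a log2 fold change of -0.72 ± 0.24 (edgeR adjusted p = 0.0918, and 0.00967 with the block). The whole beta cluster summed to 82.7 ± 10.5 CPM with DMSO and 78.8 ± 8.65 CPM with ZJU-37.

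**Figure D4:**
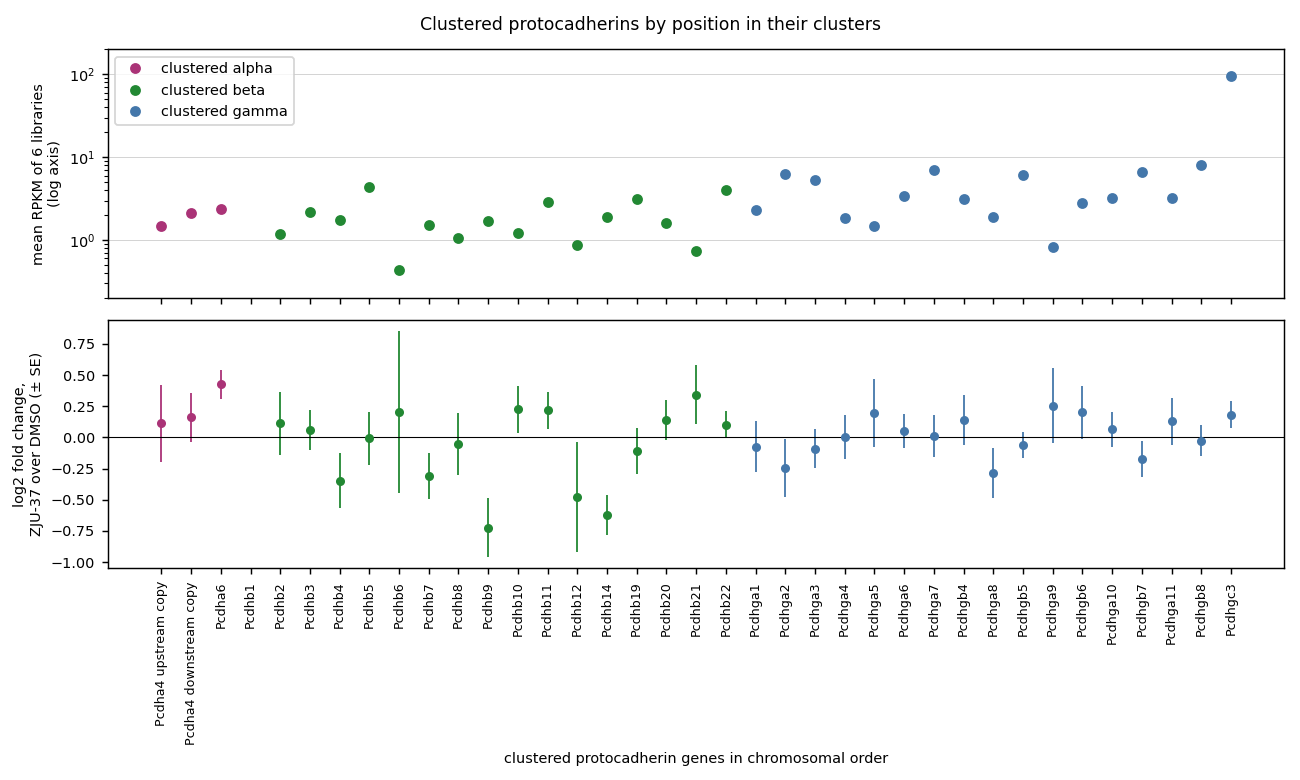
Clustered protocadherins in chromosomal order, with their mean RPKM over the 6 libraries on a log axis above (Pcdhb1, at 0, has no point) and the log2 fold change with its standard error below. Pcdhgc3 at the end of the gamma cluster stands at 95.5 RPKM, a value that may include reads from shared exons, while the other clustered genes lie under 10, and the gamma genes vary little with treatment.

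Genes that bind, cut, repress or act downstream of cadherins were described by lists, of which 96 genes were tested. Of these, 21 passed (21.9%, against 15.0% of all tested genes), 11 higher and 10 lower, and 46 with the block (47.9%, against 32.1%), 25 higher and 21 lower. Without DMSO replicate 2, 11 passed (11.2% of those tested), and the share of all tested genes was then 8.74%.

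Catenins and plaque proteins, which join classical cadherins to actin, gave 1 higher and 1 lower gene of 15, and 3 higher and 4 lower with the block. Ctnnd1 (p120-catenin), which keeps cadherins at the membrane, measured 267 ± 5.84 CPM with DMSO and 316 ± 4.43 CPM with ZJU-37 (log2 fold change 0.24 ± 0.06, edgeR adjusted p = 0.0308). Pkp4, a plakophilin-like catenin, measured 169 ± 24.5 and 121 ± 10.4 CPM (log2 fold change -0.49 ± 0.12, edgeR adjusted p = 0.0386). Each call was lost in 5 of the 6 fits that left out a library, with edgeR adjusted p-values of up to 0.105 and 0.125. The Ctnnd1 call held only without ZJU-37 replicate 1 and the Pkp4 call only without DMSO replicate 3. Beta-catenin (Ctnnb1) had 602 ± 49.1 and 646 ± 34.3 CPM and did not pass (edgeR adjusted p = 0.499).

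Of the 7 tested transcription factors known as repressors of cadherin genes, 2 rose and 1 fell, the same counts as with the block. Zeb1 measured 95.6, 85.6 and 92.4 CPM with DMSO and 187, 158 and 169 CPM with ZJU-37 (log2 fold change 0.91 ± 0.08, edgeR adjusted p = 0.000773). Its relative Zeb2, also known for its role in oligodendrocyte maturation, went the other way, from 290.0, 263 and 234 CPM to 157, 174 and 148 CPM (log2 fold change -0.72 ± 0.10, edgeR adjusted p = 0.00431). Tcf3 rose from 107 ± 4.48 to 137 ± 1.24 CPM (log2 fold change 0.36 ± 0.06, edgeR adjusted p = 0.00664). All 3 calls held whichever library was left out. Cdh1, the best known target of these repressors, was at the low level given above in both groups.

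Of 14 tested proteases that cut cadherins, Adam12 rose from 32.6 ± 3.32 to 77.5 ± 4.18 CPM (log2 fold change 1.25 ± 0.09, edgeR adjusted p = 0.00043). Psenen, a subunit of gamma-secretase, fell from 59.4 ± 0.935 to 46.9 ± 4.27 CPM (edgeR adjusted p = 0.0326), a call lost in all 6 fits that left out a library (adjusted p from 0.0513 to 0.109). With the block 2 were higher and 5 lower. Adam10, the main sheddase of N-cadherin, had a log2 fold change of 0.14 and was called in neither fit.

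Among 7 tested genes of other cadherin-domain families, Cdhr2, a protocadherin of intestinal microvilli, was the 1 called without the block, and with it 3 were lower (Cdhr2, Clstn3 and Ret) and 0 higher. It fell from 43.8, 33.5 and 28.0 CPM to 15.5, 13.2 and 11.8 CPM (log2 fold change -1.38 ± 0.19, edgeR adjusted p = 0.00395), and the call held whichever library was left out. Of the 16 planar polarity and Fat-Dachsous partners, Prickle1, a cytoplasmic polarity protein, fell from 33.2 ± 6.75 to 16.7 ± 2.05 CPM (log2 fold change -0.99 ± 0.16, edgeR adjusted p = 0.00889). With the block, 6 of these were higher and 2 lower. In the Hippo pathway, which Fat cadherins feed into, 1 of 14 genes was called, Mob1b (log2 fold change 0.34, edgeR adjusted p = 0.0269), and this call was lost in 5 of the 6 fits that left out a library, all but that without ZJU-37 replicate 2, with adjusted p-values of up to 0.107. With the block 3 of the 14 were higher and 0 lower.

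Protocadherin regulators and effectors gave 6 higher and 5 lower genes of 23, and 9 higher and 6 lower with the block. Over all tested genes 9.43% were higher and 5.58% lower, and 16.2% and 15.9% with the block. The cohesin subunits Smc1a, Rad21 and Smc3, which shape the looping of the clusters besides their role in holding chromatids together, rose by log2 fold changes of 0.39, 0.55 and 0.31 (edgeR adjusted p = 0.00777, 0.0132 and 0.0427). Smchd1, a silencer of the clusters, rose by 0.34 (edgeR adjusted p = 0.0204). Ctcf, which marks the variable promoters for looping, had a log2 fold change of 0.17 and was called only with the block. Of these, the call of Smc1a held whichever library was left out, those of Rad21 and Smchd1 were lost without DMSO replicate 2 or 3 (adjusted p of up to 0.0591 and 0.0825), and that of Smc3 held only without ZJU-37 replicate 1 (up to 0.133 in the other fits). Among the effectors, Fyn, a kinase that acts downstream of several protocadherins and in myelination, fell from 1135, 1002 and 940.0 CPM to 546, 474 and 472 CPM (log2 fold change -1.04 ± 0.10, edgeR adjusted p = 0.00102). The WAVE complex genes Cyfip2, Wasf1 and Abi1 also fell, by log2 fold changes of -0.95, -0.73 and -0.46 (edgeR adjusted p = 0.00281, 0.0136 and 0.00993), while Abi2 rose by 0.43 (edgeR adjusted p = 0.0228). Marcks fell by 0.51 on the log2 scale (edgeR adjusted p = 0.0160) and the focal adhesion kinase Ptk2 rose by 0.27 (edgeR adjusted p = 0.0185). Leaving out a library ended some of these calls. Wasf1 lost its call without DMSO replicate 2 or ZJU-37 replicate 2 or 3 (adjusted p of up to 0.0609), and Abi2 without DMSO replicate 2 or 3 (up to 0.0919). Marcks lost its call without ZJU-37 replicate 2 or 3 (up to 0.0715), and Ptk2 without any 1 of the DMSO replicates (up to 0.0713). Beside these falls, the oligodendrocyte markers Cnp and Myrf had log2 fold changes of -1.36 and -1.69 (edgeR adjusted p = 0.00362 and 0.00208), and the part of the maturing cells in the values of Fyn, Zeb2, Pcdh7 or the other genes was not tested.

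**Figure D5:**
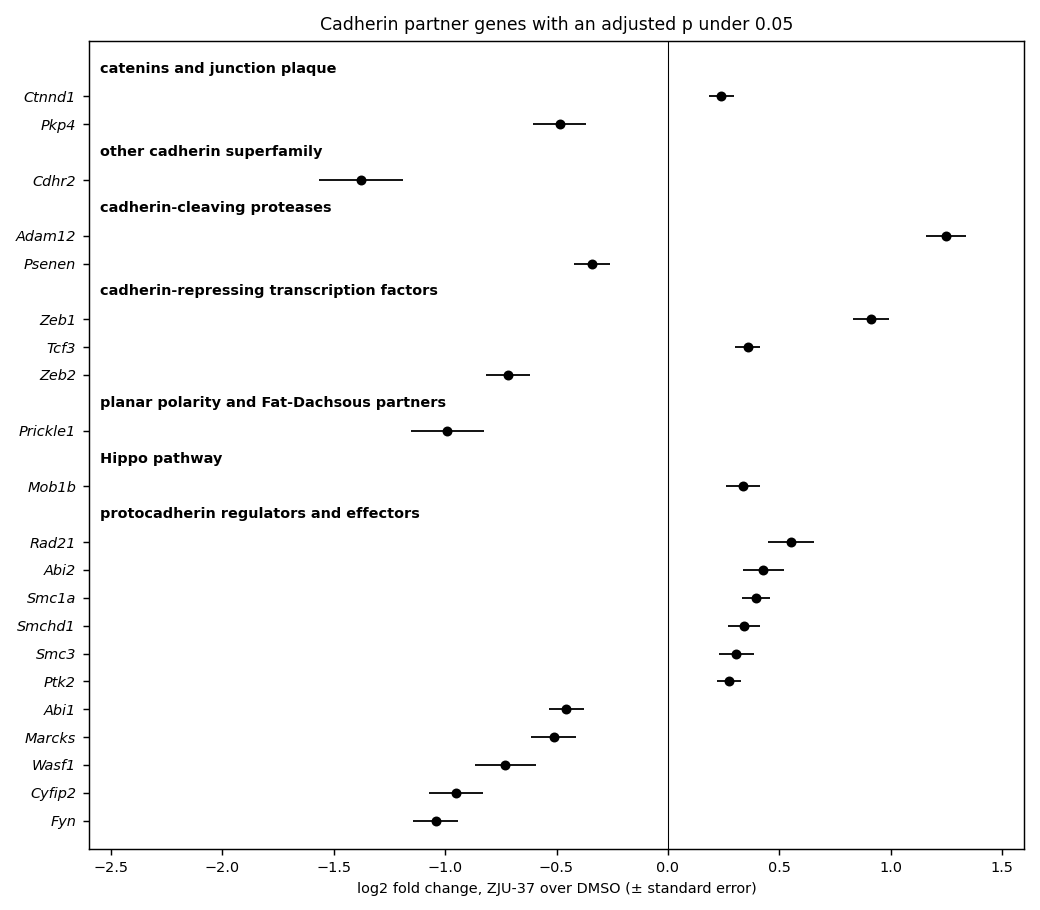
Log2 fold change of ZJU-37 over DMSO with its standard error for the 21 partner genes that passed the test, grouped by list. Adam12 (1.25) and Zeb1 (0.91) lie farthest to the right, and Cdhr2 (-1.38) and Fyn (-1.04) farthest to the left.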

How the data were processed

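Poly-A RNA of 6 libraries, 3 per group, was sequenced. The authors aligned the reads and the deposited counts are whole reads per gene, neither normalized nor filtered. The submitters' processing notes name HISAT2 2.0.5, StringTie 1.3.3b and featureCounts 1.5.0. The genome build of the table and the strand setting are not given in the sources used here. The deposited table also holds FPKM values and the authors' own DESeq2 comparison, neither of which was used.

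All 32883 genes entered 1 fit. Low-count genes were removed by filterByExpr, library scaling was by TMM (factors from 0.981 to 1.04), and groups were compared with the quasi-likelihood test of edgeR 4.0.16 in R 4.3.3 (glmQLFit with robust estimation, glmQLFTest), with Benjamini-Hochberg adjustment over the 14670 tested genes and a threshold of 0.05. The standard error of a log2 fold change was computed from its F statistic. RPKM values were computed from the counts and the table's gene lengths. Every pair of libraries differed beyond sampling noise (chi-square of 11.3 or more for each degree of freedom), and none was counted as a duplicate.

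Groups and replicate numbers come from the sample labels. Across genes, which are not independent replicates, libraries of the same number deviated together from the means of their groups (r = 0.40, 0.31 and 0.33). Libraries of different numbers had r from -0.27 to -0.01, which is partly built in, since deviations within a group cancel. The labels give the number but do not state a pairing. The number was used as a block in the second fit. The members, the partner and marker lists and the subfamilies were chosen with earlier results of these data known. The genes named were those with an adjusted p-value under 0.05 in either fit, the 10 members of highest RPKM, a fixed set of well-known members (Cdh1, Cdh2, Cdh4, Cdh11, Cdh13, Celsr1-3, Fat1-4 and Dchs1; Dchs2 was not analysed here) and the partner genes that passed. Cdh19, Cdh23, Pcdh9, Pcdh15, Pcdh18, Pcdh19, Ctnnb1, Adam10, Ctcf, Clstn3 and Ret were named after their values were seen. Pcdhb6, Pcdha4 and, from the marker lists, Pdgfra, Gpr17, Vwf, Cldn5, Emcn, Cnp and Myrf were also singled out outside this rule.

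Alternatives were DESeq2 1.42.0, other scalings and filters, the block, a log2 fold change limit of 1 and leaving out each library. Scripts were tested on simulated data with 200 changed genes, all changed by more on the log2 scale than any tested member. On these, edgeR recovered 86% with 11.8% of its calls false (14537 genes), and DESeq2 91% with 25.4% (14670 genes). The fit with the block, on a separate simulation with a block effect, recovered 84% with 11.1% of its calls false (14548 genes). The recovered shares do not apply to smaller changes such as those of the members. Promoter sequences come from RefSeq, build GRCr8, matched by symbol.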

Additional observations from a re-analysis of the deposited data

How the results depend on the processing

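The number of members called was 4 higher and 2 lower. The replicate block gave 12 higher and 9 lower, and DESeq2 gave 7 and 4 (15.9% of the members, against 17.7% of all genes it tested). With scaling to library size only, or with no filter on low counts, 1 was lower, since Pcdhb14 was lost (adjusted p = 0.0624 and 0.0872). With a log2 fold change limit of 1 in size, 0 members were higher and 0 lower, where 2.79% and 1.45% of all tested genes passed. The fits that left out a library gave between 3 and 5 higher members and 1 lower member each, in all 5.63% to 8.45% of the tested members, where 8.74% to 12.9% of all tested genes were called. Partner genes called numbered 21, 46 with the block and between 11 and 20 when a library was left out. The block kept the direction and the call of all 6 members called without it. For 28 of the members named, 302 of 335 values under the alternatives kept their side of the threshold, 11 no longer passed, and 22 passed in addition. Fold changes near 0 turned in sign for Cdh11 without DMSO replicate 1 (0.06) and for Celsr3 without DMSO replicate 2 or ZJU-37 replicate 1 (-0.10 in both), none of them called. The cause of these differences was not tested. With 3 libraries per group, some members have wide intervals on the log2 scale, such as -1.35 to 1.75 for Pcdhb6 and -1.14 to 0.37 for Pcdh8.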
